A study of Caenorhabditis elegans with 2 samples.

Results

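Aminoacyl-tRNA synthetase genes were taken as the protein-coding genes of the Ensembl WBcel235 annotation whose symbol is a single letter, ars and a number, such as lars-1. This rule gave 32 of 19973 protein-coding genes on chromosomes I to V and X. All 32 had a tRNA ligase, synthetase or related product name in the RefSeq annotation. The factor mapped was ATHP-1, which has AT-hooks and PHD fingers, in whole Caenorhabditis elegans worms. The method, ChIP-seq, sequences the DNA pulled down with a protein. The strain was OP685, a single transgenic line with unc-119(tm4063) III and wgIs685, whose ATHP-1 carries GFP and FLAG at its C-terminus. The pull-down used anti-GFP by the description, although the antibody field names athp-1, and the promoter that drives the transgene is not given in the labels. There was 1 group, of 2 biological replicates, each of young adults of mixed sex, 64 hours after synchronization as starved L1 larvae.

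The design held no second condition and no untagged strain, so no test between groups was possible. Members are described by counts and ranks beside the same values over all genes, and no p-value is given. Whole animals mix all tissues, so the cells in which a site was occupied cannot be told. The authors' lists give a signal score for each region, with no read depth, and the scores of different lists are not on a common scale. Lists were therefore compared by rank, and a score is read only within its own list. Each replicate list and the list pooled from both replicates held 30000 regions, many of them weak, and the 1649 strongest pooled regions made up the authors' reproducible list. The authors label the pooled list as peaks and background, so a region in it is not by itself a call of binding. Within the reproducible list the signal ran from 106 to 1172, with a median of 143.

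Aminoacyl-tRNA synthetases join each amino acid to its tRNA, the step at which the genetic code is read into protein. They fall into 2 unrelated structural classes. Translation in the cytosol and in mitochondria needs a charged set of tRNAs in each compartment, and some enzymes serve both while others are encoded by separate genes. The genes are transcribed by RNA polymerase II, unlike nuclear tRNA genes, which are transcribed by RNA polymerase III. In these worms the suffix 1 mostly marks the cytosolic and 2 the mitochondrial enzyme. The alanine pair is the reverse, since RefSeq names the product of aars-1 mitochondrial and that of aars-2 cytoplasmic.

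Summits in the reproducible list were found at ears-2, qars-1, fars-3 and yars-2. A gene was counted when a summit lay in its promoter window, from 500 bp before to 200 bp after any annotated 5′ end. The 4 members are 12.5% of the 32, and 4.71% of all protein-coding genes had such a summit. No member lies on the X chromosome, and over autosomal genes the share was 5.24%. The windows of members were somewhat longer, with a mean of 1021 bp against 871 bp over all genes, because members have more annotated 5′ ends. The part that length plays in the counts was not tested.

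The 4 sites differ sharply in base composition, which is seen in the sequence itself. Each is shown as 151 bp of the WBcel235 (ce11) RefSeq genome on the strand of the gene, with the summit at base 76. Capitals mark unbroken runs of at least 6 A or T, the kind of sequence to which AT-hooks are known to bind.
ears-2, chrIV:390420-390570, minus strand: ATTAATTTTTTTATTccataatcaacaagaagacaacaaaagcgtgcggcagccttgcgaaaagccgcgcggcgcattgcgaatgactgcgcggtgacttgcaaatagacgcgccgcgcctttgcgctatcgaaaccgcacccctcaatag
yars-2, chrIV:4712550-4712700, minus strand: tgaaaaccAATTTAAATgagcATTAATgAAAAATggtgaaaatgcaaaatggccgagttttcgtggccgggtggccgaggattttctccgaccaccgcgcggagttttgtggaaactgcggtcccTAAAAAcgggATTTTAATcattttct
qars-1, chrIV:15011240-15011390, minus strand: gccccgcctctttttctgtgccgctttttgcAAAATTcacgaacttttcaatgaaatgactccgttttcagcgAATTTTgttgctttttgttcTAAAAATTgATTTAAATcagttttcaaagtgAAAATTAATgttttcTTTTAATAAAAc
fars-3, chrII:8464578-8464728, plus strand: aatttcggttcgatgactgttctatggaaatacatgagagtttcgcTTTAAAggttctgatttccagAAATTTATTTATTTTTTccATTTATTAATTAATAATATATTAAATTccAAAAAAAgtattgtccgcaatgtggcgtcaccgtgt
The fars-3 sequence holds 4 A/T runs, the longest of 27 bases, and 57 of its bases lie in such runs. The ears-2 sequence holds a single run of 15 bases at its outer edge and none near the summit. At qars-1 there are 6 runs with 48 bases, the longest of 11, and at yars-2 there are 5 runs with 35 bases, the longest of 9. Over the 783 reproducible summits in promoter windows of any gene, 89.3% had a run and the median number of bases in runs was 22.

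In the 101 bp around the summit, GC was 60.4% at ears-2, 53.5% at yars-2, 27.7% at qars-1 and 20.8% at fars-3. The median over the 783 promoter summits was 45.5%. Only 22 of these (2.81%) had a higher GC than ears-2, and only 3 (0.383%) had a lower GC than fars-3. The members thus include sites from near both ends of the range.

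**Figure D1:**
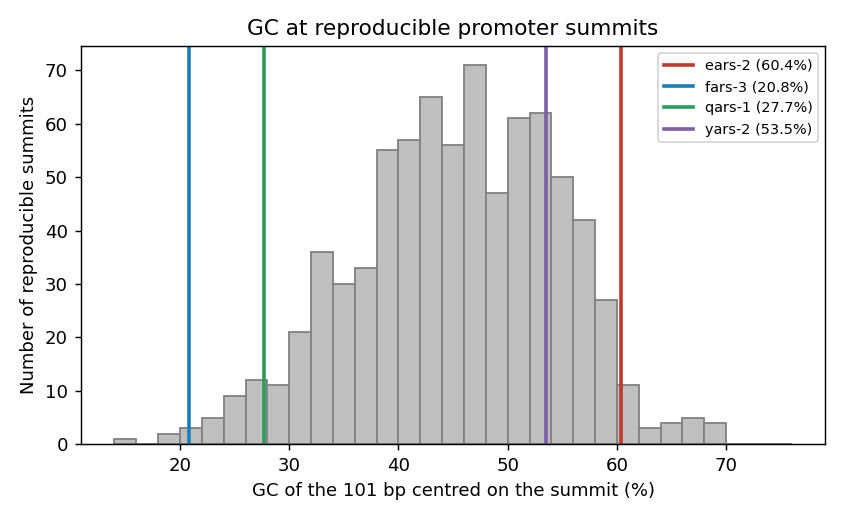
GC of the 101 bp centred on each of the 783 reproducible summits in promoter windows (bars, number of summits per bin of GC percent), with vertical lines for the 4 synthetase genes. The fars-3 and qars-1 lines lie in the low tail, the ears-2 line lies in the high tail and the yars-2 line lies on the high side of the centre.

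The ears-2 sequence also repeats a GC-rich word, which was noticed when the sequence was read and counted afterwards. GCGCGG or its reverse complement occurs 4 times in the 151 bp, with copies on opposite strands overlapping. It occurs 2 times at yars-2, where both copies overlap in a single palindromic stretch, and 0 times at fars-3 and qars-1. Among the 783 promoter summits 86 (11.0%) held the word at all, and 1 held 3 or more copies. That summit is the one at ears-2. The 4-letter core CGCG, which lies within the longer word, was found 5 times at ears-2 and in 55.0% of promoter summits. These counts describe letters in a window and were not tested.

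The strongest of the members was ears-2, named in RefSeq as a mitochondrial nondiscriminating glutamyl-tRNA synthetase, an enzyme that in mitochondria and bacteria puts glutamate on the tRNAs for glutamate and glutamine alike. ears-2 (WBGene00001338) lies on chromosome IV from 388686 to 390468, and its peak ran from 390385 to 390587. The signal was 328 in the pooled list, at rank 66. It was 132 in replicate 1, at rank 127, and 195 in replicate 2, at rank 61. The summits of the replicates lay 2 and 0 bp from the pooled summit, which was 27 bp upstream of the annotated 5′ end. The 5′ end of uncp-18, on the other strand, is 92 bp away, so the summit lies between the start sites of both genes and counts for both.

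Next came qars-1, whose product charges glutamine tRNA. qars-1 (WBGene00001336, chromosome IV from 15008503 to 15013183) had a signal of 159 at rank 621, with 76.3 in replicate 1 (rank 671) and 80.8 in replicate 2 (rank 783). The summit was not at the start of the gene. It lay in an intron of the canonical transcript, 1868 bp past that transcript's 5′ end and 334 bp upstream of the 5′ end of a shorter transcript. The gene has 4 annotated 5′ ends spread over 3856 bp, and 5 pooled summits fell in its windows. Of these, the next strongest ranked 4948, with a signal of 63.8. With a window of 200 bp to each side, qars-1 no longer had a reproducible summit.

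After it in rank was fars-3, for the beta subunit of phenylalanyl-tRNA synthetase, which works as a complex with an alpha subunit. fars-3 (WBGene00001498, chromosome II from 8464848 to 8467072) had a signal of 152 at rank 705. The replicates were close in rank, with 73.5 at rank 745 in replicate 1 and 83.8 at rank 710 in replicate 2. The peak was narrow, 138 bp wide against a median of 420 bp for the reproducible list, and its summit lay 195 bp upstream of the only annotated 5′ end. That start is 336 bp past the end of zyg-9, a microtubule regulator gene on the same strand. The strongest pooled summit of zyg-9 itself ranked 14956.

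The tyrosine enzyme gene yars-2 (WBGene00006968, chromosome IV from 4710861 to 4712624) had a signal of 147 at rank 762. Its replicates were farther apart in rank, at 56.4 (rank 1475) in replicate 1 and 80.1 (rank 800) in replicate 2. The summit lay 1 bp before the most upstream of 5 annotated 5′ ends, which span 233 bp, and 113 bp before that of the canonical transcript. Its partner yars-1 had no region in the pooled or replicate 1 lists and ranked 20376 in replicate 2. None of the 4 summits lay near a tRNA gene, the closest being 67792 bp away from the ears-2 summit.

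Below the reproducible list, synthetase genes were common among the moderately strong regions. Another 10 members had their strongest pooled summit after the reproducible list and up to rank 5000, so that 14 of 32 (43.8%) fell within the strongest 5000 pooled regions, against 10.9% of all genes. The limit of 5000 was set after the ranks had been seen, and the plot of shares by rank limit gives others. At any rank the pooled list reached 22 members (68.8%, against 30.7% of all genes). A further 8 members ranked beyond 5000. The median rank among members with a pooled summit was 3698, and among all genes with one it was 8706.

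**Figure D2:**
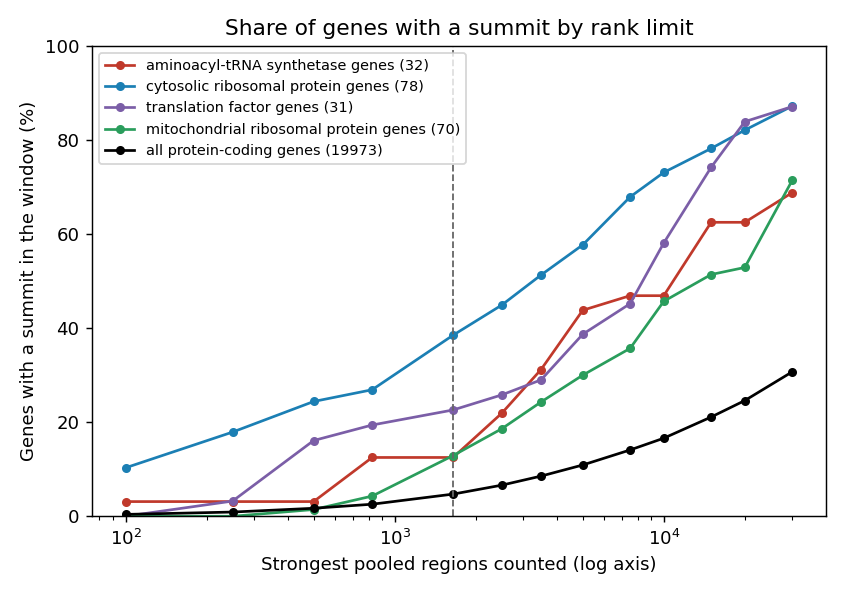
Percent of genes (vertical axis) with a summit in the promoter window among the strongest pooled regions, for limits from 100 to 30000 regions on a log axis, in 4 sets of translation genes and all protein-coding genes. The synthetase line stays at 12.5% from 825 to 1649 regions (dashed line) and climbs to 43.8% at 5000, above the line of all genes at 10.9%.

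The 10 members of this middle range came from several amino acids. rars-2 and aars-1, which RefSeq names as mitochondrial arginine and alanine enzymes, missed the reproducible list by the least. rars-2 ranked 1721 with a signal of 104, and stood at rank 5712 in replicate 1 and rank 2013 in replicate 2. aars-1 ranked 1860 with a signal of 99.6, and had 28.9 in replicate 1 (rank 8801) and 66.9 in replicate 2 (rank 1261). Both thus ranked lower in replicate 1. The asparagine gene nars-1 (pooled rank 2209) showed the same gap, with rank 8141 in replicate 1 and 1299 in replicate 2. The valine gene vars-1 ranked 2584, with 6344 in replicate 1 and 1758 in replicate 2.

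Sequences of the 2 nearest to the limit are given for comparison with the reproducible sites, in the same frame and with the same capitals.
rars-2, chrII:6125436-6125586, plus strand: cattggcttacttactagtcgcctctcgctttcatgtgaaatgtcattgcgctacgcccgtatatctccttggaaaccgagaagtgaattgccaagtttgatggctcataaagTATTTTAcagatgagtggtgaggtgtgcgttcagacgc
aars-1, chrII:11464574-11464724, minus strand: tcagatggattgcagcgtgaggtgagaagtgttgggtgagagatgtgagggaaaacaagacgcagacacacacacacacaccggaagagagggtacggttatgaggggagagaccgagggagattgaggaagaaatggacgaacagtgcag
The rars-2 sequence holds a single A/T run of 7 bases, next to the annotated 5′ end at base 124. The aars-1 sequence holds none, and its GC over the 151 bp was 52.3%. Neither has an A/T run at the summit, and the same holds for ears-2 and yars-2 among the reproducible sites, while runs lie across the summit at fars-3 and qars-1. The site of vars-1, next but one in rank, is again rich in them, with 5 runs, 47 bases in runs and a longest run of 18.

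The remaining members of the middle range were pars-2 at rank 2822, gars-1 at 3381, aars-2 at 3619, kars-1 at 3776, cars-1 at 4196 and mars-1 at 4386. They charge tRNAs for proline, glycine, alanine, lysine, cysteine and methionine. pars-2 was the reverse of aars-1, with rank 2611 in replicate 1 and 17260 in replicate 2, where the summit lay more than 100 bp from the pooled one. mars-1 had no region in replicate 1 and rank 1930 in replicate 2. At aars-2 and cars-1 the strongest pooled summit was matched within 100 bp in replicate 2 but not in replicate 1. At gars-1 the strongest summits of the replicates lay on either side of an inner 5′ end, 42 bp downstream in replicate 1 and 361 bp upstream in replicate 2, so its close ranks of 2787 and 3325 do not describe one site.

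Beyond rank 5000 were tars-1 (5422), fars-2 (10387), dars-2 (11051), sars-1 (11486), rars-1 (11603), iars-1 (14116), lars-2 (27249) and hars-1 (28031). Signals there ran from 61.2 at tars-1 down to 26.5 at hars-1, near the lowest value of the pooled list, 25.1. The deposited −log10 q-value fell from 1.15 at tars-1 to 0.106 at hars-1, so these regions may be background. ears-1 and yars-1 had a region in a replicate list alone. The 8 genes dars-1, fars-1, iars-2, lars-1, nars-2, pars-1, sars-2 and wars-1 had no summit in the window in any list. They include cytosolic enzymes that every cell needs, such as those for aspartate and tryptophan. Outside the window, pooled summits lay inside the gene at all of them but lars-1. The strongest inside dars-1 ranked 4808 and was also the strongest of its head-to-head neighbour ctr-9. The strongest inside wars-1 ranked 5447.

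**Figure D3:**
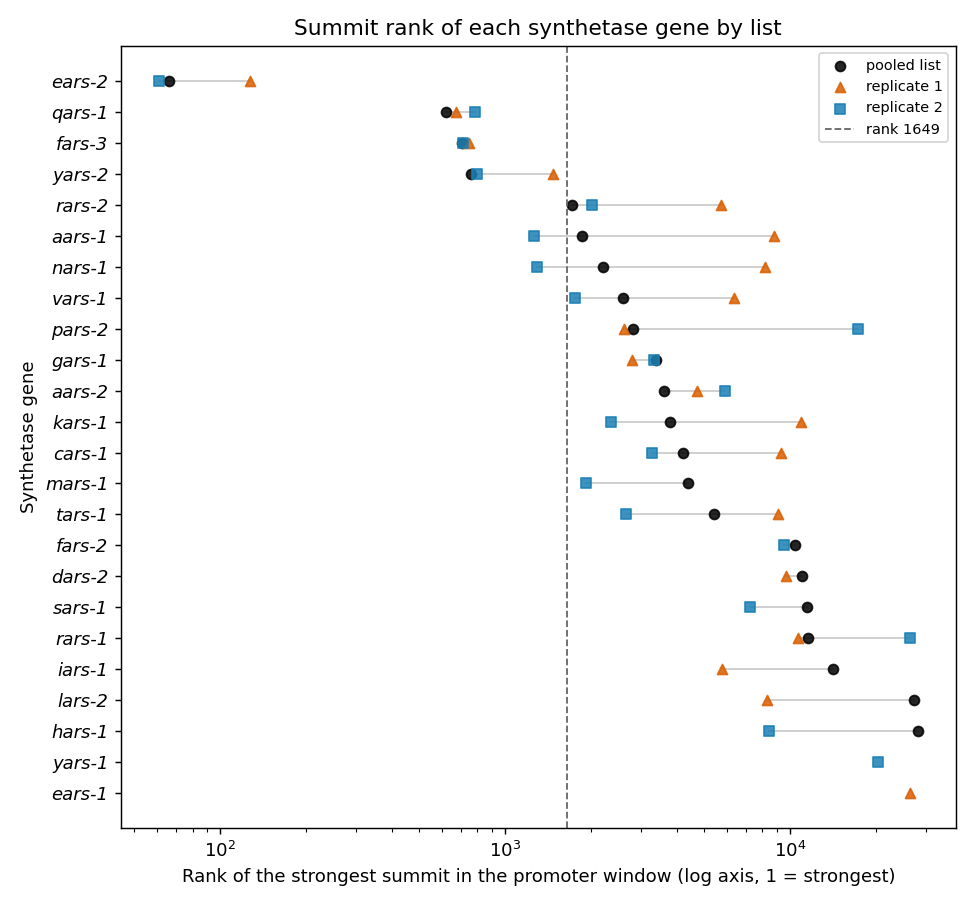
Rank of the strongest summit in the promoter window (log axis, 1 is strongest) for the 24 synthetase genes with a region in any list, in the pooled list (circles), replicate 1 (triangles) and replicate 2 (squares), with a dashed line at rank 1649. In ears-2, qars-1, fars-3 and yars-2 all 3 symbols lie left of the line, and aars-1 and nars-1 cross it in replicate 2 alone.

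The replicates held similar numbers of members. Replicate 1 had a region at 19 members (59.4%, against 29.8% of all genes) and replicate 2 at 20 (62.5%, against 31.6%). In both lists were 15 members (46.9%), while 19.9% of all genes were in both. Presence in both lists does not mean a shared site. At aars-2, cars-1, gars-1, pars-2 and tars-1 the strongest pooled summit was not matched within 100 bp in both replicates. Restricted to the 1649 strongest of a replicate, replicate 1 gave the same 4 members as the reproducible list (12.5%, against 4.20% of all genes). Replicate 2 gave these and also aars-1 and nars-1, 6 in all (18.8%, against 5.00%).

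Members ranked better in replicate 2 more often than in replicate 1. The pooled summit could be matched within 100 bp in both replicates at 11 members, and 9 of these ranked better in replicate 2. Over all 2720 genes matched in this way the share was 57.8%. The 2 that ranked better in replicate 1 were qars-1 and rars-1. With 1 library of each replicate, such a lean cannot be told apart from differences between those libraries.

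**Figure D4:**
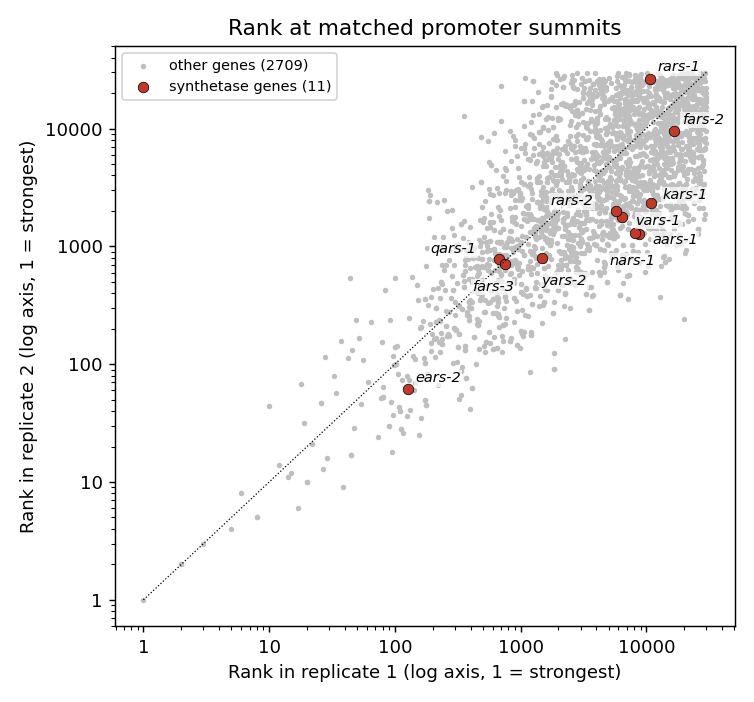
Rank in replicate 1 (horizontal) and replicate 2 (vertical), both on log axes with 1 the strongest of 30000, at pooled promoter summits matched within 100 bp in both replicates, for 11 synthetase genes (red) and the other genes (grey), with a dotted line of equal ranks. ears-2 stands apart at ranks 127 and 61, and aars-1, nars-1, vars-1, rars-2 and kars-1 lie below the line, better ranked in replicate 2.

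Most summits lay upstream of the start. Of the 22 strongest pooled summits, 19 (86.4%) were upstream of the nearest 5′ end, with a median of -209.5 bp and quartiles of -356.5 and -61.5 bp. Over all genes 70.5% were upstream, with a median of -123.5 bp. Among the strongest reproducible summits of all genes the share upstream was also 86.4%, with a median of -181 bp. The window itself extends farther upstream than downstream. The 3 downstream were dars-2 at 144 bp, iars-1 at 191 bp and rars-1 at 3 bp. By the canonical transcript, 15 summits lay outside the gene, 3 in coding exons and 3 in introns, and the one at tars-1 lay in the gene but outside that transcript.

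**Figure D5:**
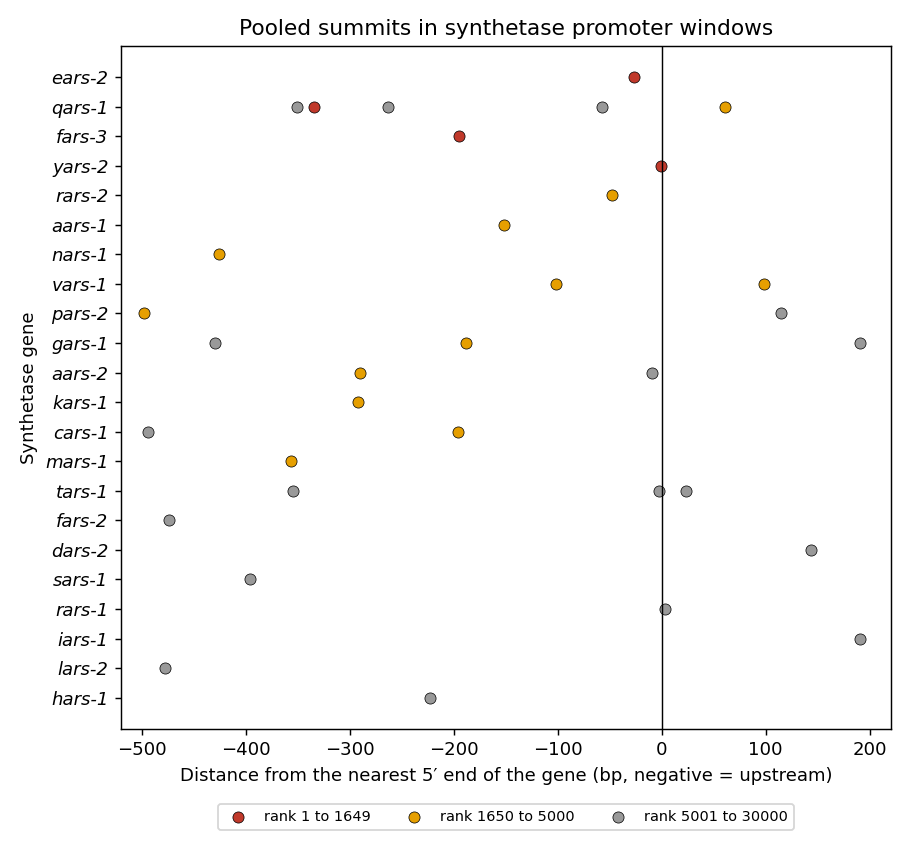
Distance in bp from each pooled summit in a promoter window to the nearest annotated 5′ end of the gene (0, negative is upstream), for 22 synthetase genes ordered by rank, coloured by rank class. Summits spread over the whole upstream part of the window, from -498 bp at pars-2 to -1 bp at yars-2, and 7 genes have several.

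Synthetase genes often stand close to a neighbour. A head-to-head 5′ end within 1000 bp was found at 12 members (37.5%, against 18.0% of all genes), and 8 of these had a pooled summit (66.7%, against 43.7% of all head-to-head genes). In 6 of the 8 the strongest summit was also the strongest of the neighbour. Over all head-to-head genes with a pooled summit that share was 69.8%. These pairs were ears-2 with uncp-18, aars-1 with rga-1, nars-1 with nduf-6, tars-1 with kel-1, sars-1 with C47E12.2, and hars-1 with T11G6.2. The summit was nearer to the neighbour at 3 members. At sars-1 it lay 18 bp from the 5′ end of C47E12.2 and 396 bp from that of sars-1. At nars-1 it lay 252 bp from nduf-6, a respiratory complex I subunit gene, and 426 bp from nars-1. At tars-1 it lay 180 bp from kel-1 and 355 bp from tars-1. For such pairs the lists cannot assign the site to one gene.

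Counts rose with a close neighbour over all genes, so members with and without one are given apart. Of head-to-head members 2 of 12 had a reproducible summit (16.7%, against 11.0% of all head-to-head genes). Of the other members 2 of 20 did, where the share of all such genes was 3.33%. The head-to-head ones were ears-2, which shared its summit with uncp-18, and qars-1. Head-to-head neighbours were sought at the canonical 5′ end, and the qars-1 summit lay in an intron 1868 bp past it. It is thus not a site at the head-to-head promoter, although qars-1 is counted there. Within the strongest 5000 pooled regions the counts were 4 of 12 (33.3%, against 21.6%) and 10 of 20 (against 8.53%). The share of members was above that of all genes in each case, on small numbers.

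At 8 members the end of a gene on the same strand lay within 200 bp upstream, a spacing common in worm operons (25.0%, against 9.24% of all genes). Operon annotation was not used here. These were dars-2, gars-1, lars-2, nars-2, rars-1, rars-2, vars-1 and yars-1. None of the 8 had a reproducible summit, against 5.90% of all genes so placed, a group too small to set a count of 0 against that share. Of the 8, 3 (37.5%, against 18.4%) were within the strongest 5000. Taking a distance of up to 1000 bp, 13 members had such a neighbour. The neighbour had a reproducible summit in its own window only in the case of iars-2. There C25A1.16 shared a summit of rank 1198 with nola-3, which encodes a small nucleolar RNP protein, and that summit was 1197 bp from iars-2.

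Reproducible summits were next looked for in the whole gene and beyond its end. They lay inside the gene at 2 members (6.25%, against 3.06% of all genes), and in the gene or within 1000 bp of it at 9 (28.1%, against 10.7%). The genes of members were longer, with a median of 3576 bp against 2027 bp, and the part of length in these counts was not tested. Besides qars-1, the one with a summit inside was fars-1, at rank 796 with a signal of 145. It lay in an intron, at the snoRNA gene T08B2.13 (within 200 bp), and outside the promoter window of fars-1, the partner by name of fars-3. Summits just past the end of the gene were found at cars-1 (46 bp, rank 661), yars-1 (187 bp, rank 1244), pars-2 (279 bp, rank 1014) and tars-1 (338 bp, rank 1201). The one past pars-2 lay in the promoter window of another gene, T27F6.6. For 14 members (43.8%, against 70.6% of all genes) no reproducible summit lay within 10000 bp.

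Groups of members were counted beside the 4.71% of all genes with a reproducible summit and the 10.9% within the strongest 5000 regions. By suffix, 1 of 20 members ending in 1 had a reproducible summit (qars-1) and 2 of 11 ending in 2 (ears-2 and yars-2), besides fars-3. The share for suffix 1, 5.00%, is near that of all genes. Within the strongest 5000 regions the shares were 8 of 20 (40.0%) and 5 of 11 (45.5%). By the RefSeq product, all 4 members named mitochondrial were within the strongest 5000 (aars-1, ears-2, pars-2 and rars-2), as were 4 of 10 named cytoplasmic, and the other 18 carry neither word. None of the 10 named cytoplasmic was in the reproducible list, a group too small to set a count of 0 against 4.71%. By structural class, 3 of 15 members of class I and 1 of 17 of class II (5.88%, near the share of all genes) had a reproducible summit, and 7 of each were within the strongest 5000. These groups are too small for their counts to order them.

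By chromosome, the reproducible sites were 3 of 8 members on chromosome IV, where 5.21% of all genes had one, and 1 of 5 on chromosome II, where 5.02% did. Chromosomes I, III and V held 9, 6 and 4 members and none of the sites, against 6.81%, 7.88% and 3.10% of all genes there. With so few members on each, these counts do not set the chromosomes apart. On chromosome II all 5 members had a pooled summit (31.8% of all genes there), and on chromosome III 2 of 6 did (42.0%). Where one amino acid had several genes, at most 1 of them had a reproducible summit.

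Promoter windows of members were ordinary in composition. GC over the 701 bp at the canonical 5′ end had a median of 34.2% (range 26.0 to 41.7%), against 35.0% over all genes. The splice acceptor word TTTCAG on the gene strand was in 20 of 32 windows (62.5%, against 63.2%). It ended within about 10 bp before the canonical 5′ end in 12 members (37.5%, against 18.0%). Many worm messages are trans-spliced, and an annotated 5′ end at such a word may be a splice site rather than a start of transcription, which limits how exactly distances to it can be read. On either strand, AATT was in all 32 windows (99.9% over all genes), CCGCCC in 1 (3.12%, against 13.6%), CACGTG in 3 (9.38%, against 12.2%) and TGACGT in 4 (12.5%, against 21.6%). TGATGCA, a core of the amino acid response element known from mammals, was in 5 (15.6%, against 7.54%). None of these was among the 4 members with a reproducible summit, a group too small to read a count of 0 from. The qars-1 summit also lay outside the 701 bp window, 1868 bp past the canonical 5′ end. Over all genes with a reproducible summit the share with this word was 7.86%.

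Nuclear tRNA genes often lay near reproducible summits. By RefSeq names, of 606 nuclear tRNA genes 257 (42.4%) lay within 200 bp of a reproducible summit. For the amino acids of the 4 synthetase sites the counts were 17 of 41 for glutamate, 12 of 27 for glutamine, 4 of 14 for phenylalanine and 4 of 19 for tyrosine, together 36.6%. For the other 16 amino acids the share was 43.6%. Enzymes and tRNA genes were paired by amino acid alone. Mitochondrial tRNA genes were not counted, although RefSeq names ears-2 a mitochondrial enzyme. No member's canonical 5′ end lay closer than 46485 bp to a tRNA gene.

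Other steps of the tRNA pathway were read from lists written with earlier results of these data known. Among factors that bring charged tRNA to the ribosome and move it there, 6 of 9 had a reproducible summit, where the share of all genes was 4.71%. These were eef-1A.1 and eef-1A.2, for the factor that carries aminoacyl-tRNA to the ribosome, with pooled ranks of 814 and 310, the exchange factor subunit genes eef-1B.1 (1602) and eef-1G (348), the translocation factor gene eef-2 (383) and the mitochondrial factor gene tufm-2 (1287). Among 26 matched genes of tRNA processing and modification, 2 did (7.69%), a share near that of all genes. These were mtcu-2 (rank 216), for a mitochondrial tRNA modification enzyme, and nsun-1 (rank 1395), for an RNA methyltransferase known to act on ribosomal RNA. Among 10 matched genes that sense amino acids or uncharged tRNA, none did, in a list too short to set a count of 0 against 4.71%. The best ranked there was gcn-1 at 3412, a cofactor of the kinase that responds to uncharged tRNA. The strongest pooled summit of eef-1G was also that of ctf-4, and that of eef-2 was also that of clsp-1.

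Set beside other translation genes, synthetases had fewer reproducible sites than cytosolic ribosomal proteins, with 30 of 78 genes (38.5%), and a share close to mitochondrial ribosomal proteins, with 9 of 70 (12.9%). Translation factors named eif or eef had 7 of 31 (22.6%). The eef genes among these 7 were already counted above with the factors that bring charged tRNA to the ribosome. Within the strongest 5000 regions the values were 57.7% for cytosolic ribosomal proteins, 21 of 70 for mitochondrial ones and 38.7% for translation factors, against 43.8% for synthetases. The differences between these sets were not tested.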

How the data were processed

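Peak lists of 2 biological replicates of a single group were analysed. Per the deposited readme text, each replicate list was made from the alignment of that replicate and a control alignment, the pooled list from both replicates with a control, and the reproducible list from those 3. The readme calls that list optimal after thresholding on the irreproducible discovery rate. Aligner, peak caller, cutoff and read depth: not given in the sources used here. The precision that depth gives is therefore unknown. The deposited signal is a score of the authors whose scale is not stated. The deposited −log10 q-value of each region is tied at its maximum for many regions and was not used to rank or filter.

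From these lists the summit was taken as the region start plus the deposited offset. Only ce11 lists were used, with Ensembl release 115 genes on WBcel235, the same build. The reproducible list was the same as the 1649 strongest pooled regions in all 1649 entries. Coordinates are 1-based. A summit counted for a gene when it lay at most 500 bp before or 200 bp after any 5′ end of its protein-coding transcripts. A gene with several summits was given its strongest. Replicate regions were matched within 100 bp.

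The members and lists were chosen with earlier results of these data known. The rule named every member with a reproducible summit in full, up to 6 of the next best ranked, and the rest by rank. Of the listed pathway genes, 26 of 30, 9 of 9 and 10 of 12 symbols matched the annotation. Alternatives were other windows, each replicate alone, the 825 strongest reproducible peaks, nearest 5′ end only, removal of summits at small RNA genes, and overlap of the whole peak. The GC-rich words, the 200 bp limit for same-strand neighbours and the limit of 5000 regions were chosen after seeing the data. The counting was tested on simulated data with planted summits. Python 3.11.15 and matplotlib 3.10.9 were used.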

Additional observations from a re-analysis of the deposited data

How the results depend on the processing

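The count of members with a reproducible summit ran from 3 to 6 over the 8 alternatives. It was 4 to 6 with a replicate left out (4.20% and 5.00% of all genes). It was 3 with a window of 200 bp to each side (2.60%), which loses qars-1. Under the other 5 it was 4, where the share of all genes ran from 2.56% to 6.22%. ears-2, fars-3 and yars-2 were counted under every one of these alternatives. With only the 825 strongest reproducible peaks, the 4 members stood against 2.56% of all genes. The count with any pooled summit was 22. It was 15 with the narrow window (46.9%, against 21.2% of all genes). With 1000 bp upstream to 500 bp downstream it was 28 (87.5%, against 43.6%). With a replicate left out it was 19 to 20, against 29.8% and 31.6% of all genes. It was 14 within the strongest 5000 regions (against 10.9% of all genes), since fewer regions were counted, a limit added after seeing the data. No paired analysis was possible because there is 1 group. Read depth is unknown, so a member without a region is not shown to be unbound. Worms without the tag, or with other tagged proteins, were not analysed here, and whether these sites are particular to ATHP-1 was not tested.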
